A study of Mus musculus with 6 samples.

Results

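Leukocyte adhesion molecules, the macrophage growth factor gene Csf1 and the cytokine gene Il6 were examined in RNA sequencing of mouse liver endothelial cells. The 7 genes, Icam1, Icam2, Vcam1, Selp, Sele, Csf1 and Il6, were chosen by name from the 39179 genes of the deposited tables, and each was found there once. Of these, 6 passed the filter on low values and were tested, and Il6 did not pass it. The high_iron group was wild-type 129S6/SvEvTac males on a purified AIN-93G diet with 10000 ppm carbonyl iron, and the control_iron group was males of the same strain and genotype on that diet with 37 ppm iron as ferric citrate. Both groups started the diet at 3 weeks of age, ate it for 4 weeks and were sampled at 7 weeks, so the amount and the chemical form of iron differed together and cannot be told apart. Each group had 3 biological replicates, and whether a replicate was 1 animal or a pool is not given in the sources used here. Cells were sorted as positive for CD31 and CD146 and negative for CD45, CD64, MHC class II and lineage markers.

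Circulating leukocytes leave the blood in steps that endothelial surface proteins guide. Selectins catch passing cells and let them roll, and ICAM and VCAM proteins then hold them firmly by binding integrins on the leukocyte. In many vascular beds inflammatory cytokines raise Icam1, Vcam1 and Sele through the transcription factor NF-kB, whereas Icam2 is present without stimulation. The liver sinusoid differs from other beds in that leukocytes can adhere there with little help from selectins. Colony stimulating factor 1, the product of Csf1, is the growth and survival factor of macrophages, including the resident Kupffer cells of the sinusoid, and interleukin 6 is a cytokine that signals through STAT3.

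The proximal promoters are shown because several of these genes are textbook NF-kB targets, and Csf1, Icam1 and Sele stand for the growth factor, the integrin ligands and the selectins. Each run holds the 250 bases before the RefSeq start site in GRCm38.p6, read in the direction of transcription. Capitals mark matches to GGNNNTTCC on either strand, a loose form of the NF-kB site. The Csf1 window lies at chr3:107760470-107760719 on the minus strand, the Icam1 window at chr9:21015690-21015939 on the plus strand and the Sele window at chr1:164047984-164048233 on the plus strand.

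Csf1: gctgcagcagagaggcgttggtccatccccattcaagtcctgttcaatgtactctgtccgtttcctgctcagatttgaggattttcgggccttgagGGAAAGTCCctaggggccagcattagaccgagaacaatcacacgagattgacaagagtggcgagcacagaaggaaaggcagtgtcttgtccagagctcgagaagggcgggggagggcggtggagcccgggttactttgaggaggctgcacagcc

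Icam1: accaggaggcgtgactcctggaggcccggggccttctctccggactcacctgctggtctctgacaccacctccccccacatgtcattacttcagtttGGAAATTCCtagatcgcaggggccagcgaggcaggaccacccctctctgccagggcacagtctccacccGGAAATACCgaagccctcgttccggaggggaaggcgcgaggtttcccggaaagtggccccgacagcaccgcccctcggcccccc

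Sele: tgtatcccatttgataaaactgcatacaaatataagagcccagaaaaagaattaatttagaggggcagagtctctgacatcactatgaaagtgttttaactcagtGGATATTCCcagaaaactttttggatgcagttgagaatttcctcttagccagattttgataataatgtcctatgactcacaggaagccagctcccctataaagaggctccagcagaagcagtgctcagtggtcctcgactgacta

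Promoter windows of Icam1, Selp, Sele, Csf1 and Il6 were matched in the RefSeq table, 5 of the 7 genes, and each held GGNNNTTCC at least once. Over all 32851 start sites in the same table, 15.7% of windows of that length held it. Counting the base before the start as -1, the match ran from -154 to -146 in Csf1 and from -145 to -137 in Sele. Icam1 held a match from -153 to -145, where the motif matches on both strands, and another from -84 to -76. Selp held it from -14 to -6 and Il6 from -43 to -35. The AP-1 form TGANTCA was found in Selp, Sele and Il6, against 6.75% of all windows. The antioxidant response form TGACNNNGC was found in 0 of the 5 windows, against 10.2% of all. No match overlapped a match to another motif, and a match is a description of these letters, not of binding.

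Gene positions come from GENCODE M21 on GRCm38, the build named mm10 in the submitters' processing notes. Icam1 spans chr9:21015985-21028817 (plus strand, 7 merged exons) and Icam2 spans chr11:106377656-106388075 (minus strand, 7 merged exons). Vcam1 spans chr3:116109949-116129688 (minus strand, 10 merged exons) and Csf1 chr3:107741048-107760469 (minus strand, 12 merged exons). Both selectin genes lie on the plus strand of chromosome 1, Sele at chr1:164048234-164057677 (14 merged exons) and Selp at chr1:164115264-164150026 (17 merged exons). Il6 spans chr5:30013114-30019981 (plus strand, 4 merged exons). Exons of antisense genes cover 14.1% of the exonic bases of Selp, 11.7% of Icam1 and 0.688% of Vcam1. The library kit does not mark strand, so reads from a gene and its antisense partner cannot be told apart. No near-identical copy was found for any of the 7 genes.

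The libraries held 12963510 to 19265165 reads in genes in high_iron and 18008668 to 21663543 in control_iron. Levels are CPM, the reads of a gene relative to a scaled library size, and RPKM, CPM per 1000 bases of gene length. Stab1 and Stab2, scavenger receptors of the liver sinusoid, averaged 4182 and 3222 CPM in high_iron and 3678 and 3687 CPM in control_iron, and all 10 sinusoidal markers passed the filter. Control_iron replicate 1 stood apart, with 138.5 CPM of Vwf, the von Willebrand factor gene of larger vessels, against 15.0 to 31.7 CPM in the other 5 libraries. That library also had 19.1 CPM of Edn1, the endothelin 1 gene, against 0.924 to 2.85 CPM in the others. Its mesothelial marker sum was 30.2 CPM, against 2.28 to 11.4 CPM in the others. The gene Gpm6a alone was 29.1 CPM of that sum, and the mesothelial genes Msln and Wt1 were at 0 there. Among the 12 vein and large vessel markers, Plvap, Ly6c1, Thbd, Rspo3, Cdh13 and Fabp4 were also highest in that library. Cd34, Ly6a, Wnt2 and Efnb2 were not. Its macrophage, hepatocyte and stellate marker sums, 80.7, 224 and 139 CPM, were the lowest of the 6 libraries. For the tested members and the Icam1 to Icam2 ratio, results are given with and without control_iron replicate 1. In sorted bulk samples, fewer cells of a type and less RNA per cell cannot be told apart.

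Csf1 was the member that rose on the high-iron diet. Its level was 352.5, 314 and 376 CPM in high_iron replicates 1 to 3, against 160.2, 144 and 217.5 CPM in control_iron replicates 1 to 3. All high_iron libraries lay above all control_iron libraries. The means were 347.5 ± 31.5 CPM in high_iron and 174 ± 38.6 CPM in control_iron (SD, n = 3 each), a ratio of 2.00. The log2 fold change on the log2(CPM + 1) scale was 1.01 ± 0.17 (SE), with a 95% interval of 0.64 to 1.39 and an adjusted p of 0.0288 by limma with Benjamini-Hochberg adjustment. Of the 6 members tested, 1 passed, against 1.02% of all genes tested in either direction. Likewise 1 of the 6 had groups that did not overlap, against 17.9% of all genes tested in either direction and 9.46% of them with high_iron higher.

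The Csf1 call depended on single libraries although its size did not. With any 1 library left out, the log2 fold change ran from 0.89 to 1.18. The call was kept in 2 of these 6 fits, without control_iron replicate 1 (limma adjusted p = 0.0359) and without control_iron replicate 3 (adjusted p = 0.0103). It was lost without high_iron replicate 1 (adjusted p = 0.0916), high_iron replicate 2 (0.0851), high_iron replicate 3 (0.181) and control_iron replicate 2 (0.0775). The call was also made by edgeR (adjusted p = 0.0447) and DESeq2 (adjusted p = 3.2e-05) on the recovered reads, in which Csf1 was again the 1 member of 6 called, against 0.924% of all genes by edgeR and 3.27% by DESeq2.

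Markers of Kupffer cells and macrophages were also higher in high_iron, although the sort had removed cells with CD45 and CD64. Summed over 15 markers, their level was 523, 262 and 360.3 CPM in high_iron replicates 1 to 3, against 80.7, 183 and 99.6 CPM in control_iron replicates 1 to 3. Of the 14 tested, 3 rose by limma and 0 fell, against 0.832% of all genes called higher, 2 were called by edgeR, against 0.924%, and 10 by DESeq2, against 3.27%. The median log2 fold change was 1.70 against -0.0034 over all genes tested. It was above 0 for 13 of the 14, and Cd14 went the other way, with means of 5.01 CPM in high_iron and 6.59 CPM in control_iron. No marker of the list was at 0 in every library. The order of the libraries differed between that sum and Csf1: the high_iron library with the lowest macrophage sum also had the lowest Csf1 of its group, whereas the control_iron library with the highest macrophage sum had the lowest Csf1 of all 6. The part of these cells in the Csf1 difference was not tested.

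**Figure D1:**
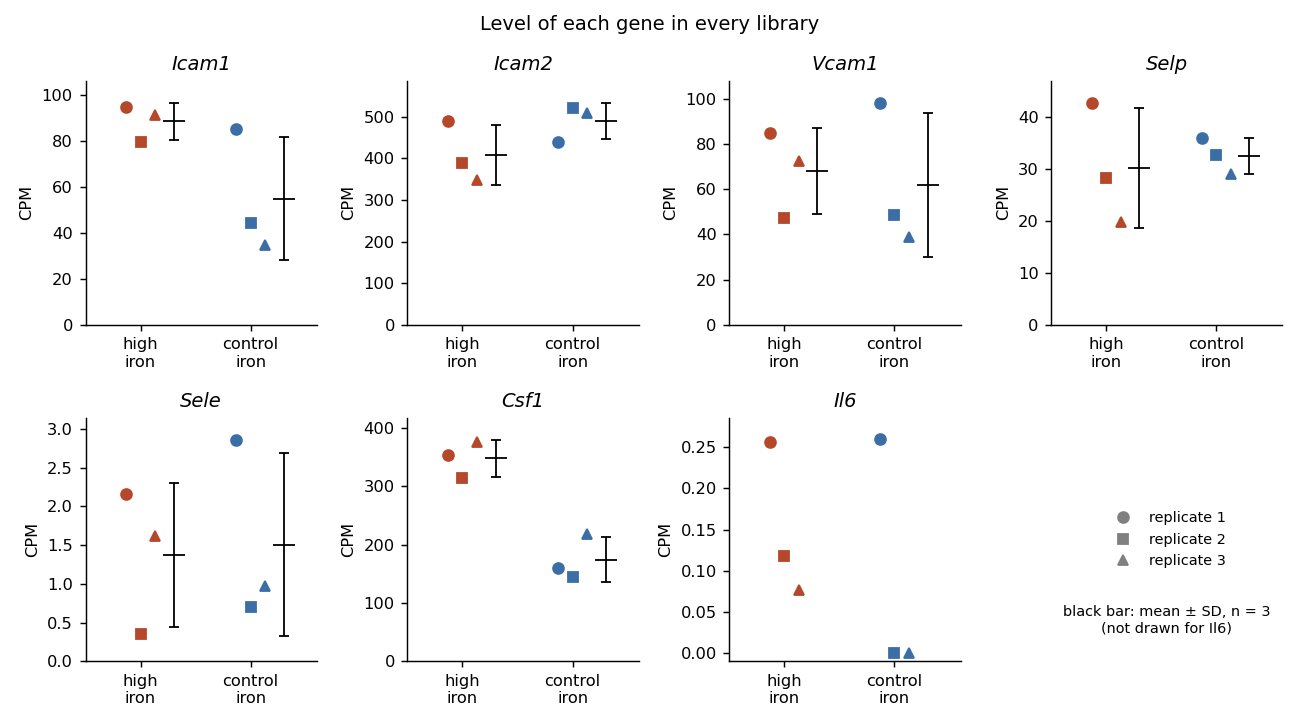
Level of each of the 7 genes in CPM (vertical axis, linear, a scale of its own for each gene) in the 3 high_iron libraries (red) and the 3 control_iron libraries (blue), with the marker shape giving the replicate and the black bar the mean ± SD, which is not drawn for Il6. Csf1 is 314 to 376 CPM in high_iron and 144 to 217.5 CPM in control_iron, and for the other 6 genes the groups overlap.

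Icam1, the inducible ligand of the leukocyte integrins LFA-1 and Mac-1, did not pass the test. It stood at 94.7, 79.5 and 91.3 CPM in high_iron replicates 1 to 3, against 85.4, 44.4 and 34.9 CPM in control_iron replicates 1 to 3. The high_iron libraries lay close together, and control_iron replicate 1 lay among them while the other control_iron libraries were lower. The means were 88.5 ± 7.97 CPM in high_iron and 54.9 ± 26.9 CPM in control_iron (SD, n = 3 each). The log2 fold change was 0.78 ± 0.28 (SE), with a 95% interval of 0.16 to 1.40 before adjustment and an adjusted p of 0.299 by limma with Benjamini-Hochberg adjustment. Without control_iron replicate 1 the log2 fold change was 1.15 and the limma adjusted p 0.0092. Over all 6 fits that left out 1 library, it ran from 0.51 to 1.15 and passed in 1.

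Icam2, the constitutive endothelial ligand of LFA-1, had the highest mean CPM of the members in both groups and its lowest levels in high_iron. In high_iron replicate 3, Csf1 was higher in CPM (376 against 348). Its level was 489, 388 and 348 CPM in high_iron replicates 1 to 3, against 440.4, 520.3 and 508 CPM in control_iron replicates 1 to 3. High_iron replicate 1 exceeded control_iron replicate 1, so the groups overlapped. The means were 408 ± 72.7 CPM in high_iron and 489.6 ± 43.0 CPM in control_iron (SD, n = 3 each). The log2 fold change was -0.27 ± 0.16 (SE), and limma gave an adjusted p of 0.513. Its 95% interval corresponded to 0.65-fold to 1.06-fold, and no fit without 1 library passed. Without control_iron replicate 1 the log2 fold change was -0.35.

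Vcam1, the ligand of the leukocyte integrin VLA-4, varied more among the libraries of a group than between the groups. It was at 84.7, 47.2 and 72.3 CPM in high_iron replicates 1 to 3, against 98.1, 48.5 and 38.8 CPM in control_iron replicates 1 to 3. Both the highest and the lowest of the 6 values were in control_iron. The means were 68.1 ± 19.1 CPM in high_iron and 61.8 ± 31.8 CPM in control_iron (SD, n = 3 each). The log2 fold change was 0.21 ± 0.33 (SE) and did not pass (limma adjusted p = 0.810), with an interval of 0.699-fold to 1.92-fold. It turned to -0.061 without control_iron replicate 3, and was 0.60 without control_iron replicate 1.

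Selp encodes P-selectin, which endothelial cells store in Weibel-Palade bodies together with von Willebrand factor. Its level was 42.6, 28.1 and 19.8 CPM in high_iron replicates 1 to 3, against 35.9, 32.6 and 29.0 CPM in control_iron replicates 1 to 3. The high_iron libraries spanned the whole control_iron range. The means were 30.2 ± 11.6 CPM in high_iron and 32.5 ± 3.46 CPM in control_iron (SD, n = 3 each). The log2 fold change was -0.16 ± 0.25 (SE) with a limma adjusted p of 0.807 and an interval of 0.606-fold to 1.31-fold. Without high_iron replicate 3 it turned to 0.095, and without control_iron replicate 1 it was -0.092.

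Sele encodes E-selectin, which in most vascular beds is made after cytokine stimulation, and it was scarce in both groups. It had 42, 6 and 21 reads in high_iron replicates 1 to 3, against 55, 15 and 17 reads in control_iron replicates 1 to 3. In CPM these were 2.16, 0.354 and 1.61 in high_iron, against 2.86, 0.697 and 0.968 in control_iron, so the groups overlapped. The means were 1.38 ± 0.925 CPM in high_iron and 1.51 ± 1.18 CPM in control_iron (SD, n = 3 each). Summed reads gave 1.40 CPM (exact 95% Poisson interval 1.09 to 1.77) in high_iron and 1.49 CPM (1.19 to 1.84) in control_iron, intervals that cover counting error only. The log2 fold change was -0.069 ± 0.40 (SE) with a limma adjusted p of 0.957. It turned to 0.29 without high_iron replicate 2 and likewise to 0.29 without control_iron replicate 1.

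Il6 was at the limit of detection. It had 5, 2 and 1 reads in high_iron replicates 1 to 3, against 5, 0 and 0 reads in control_iron replicates 1 to 3. Over a group, that was 8 reads or 0.162 CPM (exact 95% Poisson interval 0.0698 to 0.319) in high_iron and 5 reads or 0.0857 CPM (0.0278 to 0.200) in control_iron. The 2 control_iron libraries without a read allow up to 0.139 and 0.171 CPM by a floor of 3 reads. A difference in Il6 was not detectable at this depth, and with no filter limma gave an adjusted p of 0.815.

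**Figure D2:**
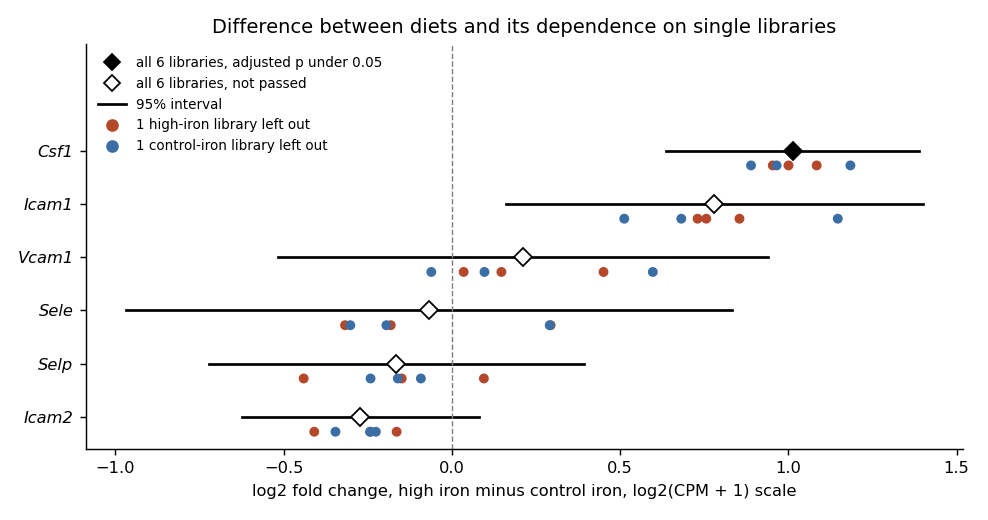
Log2 fold change, high_iron minus control_iron on the log2(CPM + 1) scale (horizontal axis), of the 6 tested genes, with diamonds and black lines for all 6 libraries and their 95% interval, and points for fits without 1 high_iron library (red) or without 1 control_iron library (blue). Csf1 stays between 0.89 and 1.18 and Icam1 between 0.51 and 1.15, while the points of Vcam1, Selp and Sele lie on both sides of 0.

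Replicate 1 was the highest of its group for Icam1, Vcam1, Selp and Sele in high_iron and in control_iron alike. For Vcam1 and Sele, control_iron replicate 1 was the highest of all 6 libraries. The same library carried the high Vwf and Edn1 levels given above, whereas high_iron replicate 1 had 19.1 CPM of Vwf and 0.924 CPM of Edn1. In both groups replicate 1 had the lowest stellate and hepatocyte marker sums. The part of the makeup of these libraries in the adhesion genes was not tested.

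Per deposited gene length, the group means of the members had the same order, from Icam2 down to Il6, in high_iron and control_iron. In high_iron, Icam2 averaged 215 ± 38.3 RPKM, Csf1 64.6 ± 5.85 RPKM, Icam1 34.95 ± 3.15 RPKM, Vcam1 20.1 ± 5.64 RPKM, Selp 6.86 ± 2.63 RPKM and Sele 0.474 ± 0.319 RPKM (SD, n = 3). In control_iron, Icam2 averaged 258 ± 22.7 RPKM, Csf1 32.3 ± 7.17 RPKM, Icam1 21.7 ± 10.6 RPKM, Vcam1 18.2 ± 9.38 RPKM, Selp 7.39 ± 0.786 RPKM and Sele 0.520 ± 0.406 RPKM (SD, n = 3). Il6 averaged 0.139 RPKM in high_iron and 0.0800 RPKM in control_iron, or 0.0620 in high_iron and 0.0357 in control_iron as CPM per 1000 bases with the GENCODE M21 length of 2428 bases in place of the deposited 1082. In high_iron no neighbours among Icam2, Csf1, Icam1 and Vcam1 overlapped, whereas in control_iron Csf1 overlapped Icam1 and Icam1 overlapped Vcam1. The order of Vcam1 and Selp depends on the gene length used. The deposited lengths are 3389 bases for Vcam1 and 2533 for Icam1, whereas merged exons in GENCODE M21 cover 8870 and 4360 bases. With the GENCODE lengths, an alternative added after the values were seen, Vcam1 was at 7.67 and Selp at 6.83 CPM per 1000 bases in high_iron, and Vcam1 at 6.97 and Selp at 7.36 in control_iron.

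**Figure D3:**
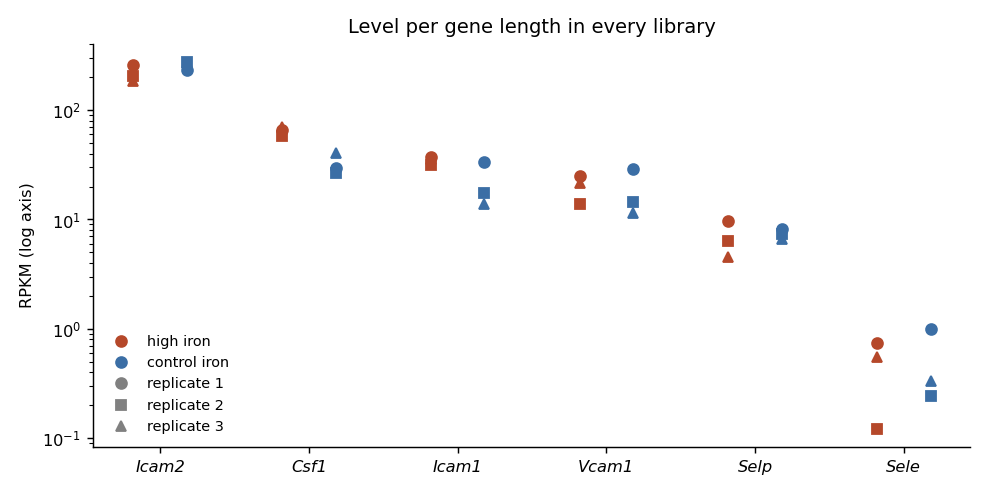
RPKM (vertical axis, log scale) of 6 genes in the 3 high_iron libraries (red, left of each pair) and the 3 control_iron libraries (blue), ordered by level, with the marker shape giving the replicate. Icam2 is highest in every library and Sele lowest, and Il6 is left out because 2 libraries are listed at 0.

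The balance among the adhesion molecules was compared within each library. Icam2 made up 78.0%, 79.8% and 74.6% of the summed RPKM of the 5 adhesion genes in high_iron replicates 1 to 3, against 76.4%, 87.4% and 89.3% in control_iron replicates 1 to 3. Icam1 made up 11.3%, 12.3% and 14.7% in high_iron, against 11.1%, 5.58% and 4.59% in control_iron. With GENCODE M21 lengths, also added after the values were seen, the Icam1 shares were 7.28%, 7.80% and 9.65% in high_iron and 7.23%, 3.43% and 2.80% in control_iron. For both shares, control_iron replicate 1 lay nearer to the high_iron libraries than to the other control_iron libraries. The ratio of Vcam1 to Icam1 in CPM was 0.894, 0.593 and 0.792 in high_iron, against 1.15, 1.09 and 1.11 in control_iron, and the groups did not overlap. Its mean log2 value was -0.417 ± 0.304 in high_iron and 0.161 ± 0.035 in control_iron (SD, n = 3 each). The exact two-sided permutation test gave p = 0.10, the smallest that 3 against 3 allows, and 0.30 after adjustment over the 3 ratios computed. The Icam1 to Icam2 ratio was 0.194, 0.205 and 0.262 in high_iron, against 0.194, 0.0852 and 0.0686 in control_iron (exact permutation p = 0.20, adjusted 0.30). In mean log2 ratio high_iron was higher by 1.07 with all libraries, and by 1.51 without control_iron replicate 1. Selp exceeded Sele 19.8, 79.5 and 12.2 times in high_iron and 12.6, 46.7 and 29.9 times in control_iron (exact permutation p = 1.0).

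**Figure D4:**
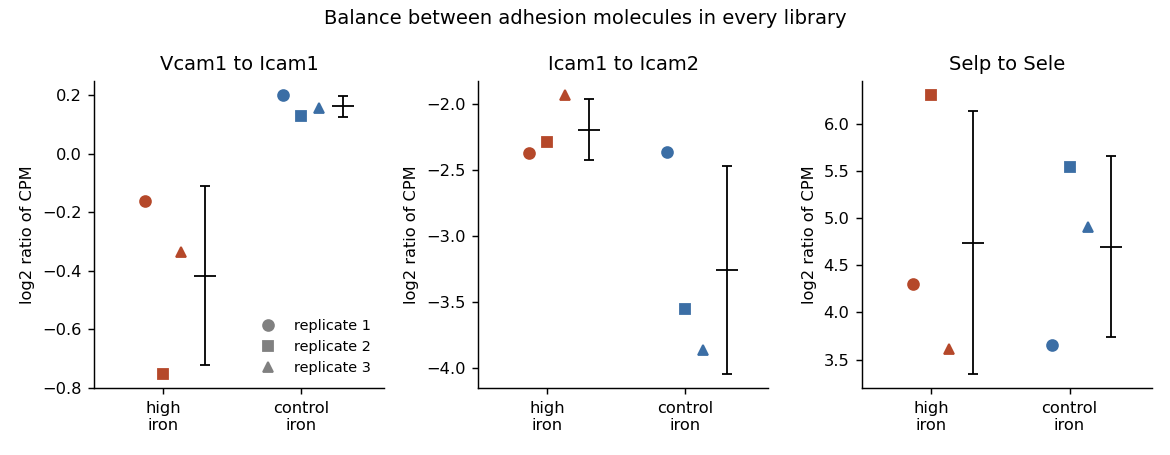
Log2 ratio of CPM (vertical axes) of Vcam1 to Icam1, Icam1 to Icam2 and Selp to Sele in the 3 high_iron libraries (red) and the 3 control_iron libraries (blue), with the marker shape giving the replicate and black bars the mean ± SD. The Vcam1 to Icam1 ratio is below 0 in every high_iron library and above 0 in every control_iron library, and the groups overlap in the other panels.

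Among 9543 genes compared by Pearson's r over the 6 libraries, the genes most like each member were listed as a description. For Csf1 these were Smc2, a condensin subunit gene (r = 0.993), and Tcp11l1 (r = 0.986). For Icam1 they were Vrk2, a kinase gene (r = 0.997), and Fut8, the core fucosyltransferase gene (r = 0.989), and for Icam2 Rabl3 (0.995) and Zfp938 (0.992). Vcam1 was most like Tmem67 (0.985) and Tlr2, a receptor gene for bacterial lipoproteins (0.984). Selp was most like Bud13 (0.984) and Mmgt1 (0.964), and Sele most like Ikbkap (0.978) and Pdk3 (0.974). The points share library and depth, the genes were picked as the highest of all candidates, and no test is attached. Among the members themselves r was 0.80 between Icam1 and Vcam1, 0.89 between Vcam1 and Sele and -0.64 between Icam1 and Icam2.

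Genes of the same pathways were read from 10 lists with 120 tested genes, of which 3 passed, Csf1r, Itgal and Socs3, all higher in high_iron, against 0.832% of all genes tested that were higher. Left out 1 at a time, libraries moved that count between 0 and 3. The endothelial adhesion list held 17 tested of 21 genes, of which 0 passed by limma, edgeR or DESeq2 and 5 had an unadjusted p under 0.05, a level that 12.1% of all genes tested reached. Its summed level was 9990 to 10100 CPM in high_iron and 9489 to 10370 CPM in control_iron, and Icam4 and Glycam1 were at 0 throughout. Esam, a junctional adhesion molecule gene, averaged 1131 ± 32.7 CPM in high_iron and 968 ± 113 CPM in control_iron (SD, n = 3 each). Emcn, the gene of the sialomucin endomucin, averaged 246 ± 27.7 CPM in high_iron and 335.5 ± 7.52 CPM in control_iron (limma adjusted p = 0.172). Cd44, the hyaluronan receptor gene, averaged 4.33 ± 1.51 CPM in high_iron and 1.34 ± 0.832 CPM in control_iron (limma adjusted p = 0.154).

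On the leukocyte side, 8 of 12 counter-receptor genes were tested and 1 rose by limma, against 0.832% of all genes called higher. By edgeR 1 was called as well, against 0.924%, whereas DESeq2 called 3, against 3.27%. Itgal, the LFA-1 alpha subunit that binds Icam1 and Icam2, was at 9.03, 3.42 and 5.84 CPM in high_iron replicates 1 to 3, against 0.987, 1.07 and 1.03 CPM in control_iron. Its log2 fold change was 1.73 ± 0.30 (SE) with a limma adjusted p of 0.0352. The call was kept without high_iron replicate 2 (adjusted p = 0.0314) and control_iron replicate 1 (0.0413), and was lost without high_iron replicate 1 (0.0920), high_iron replicate 3 (0.184), control_iron replicate 2 (0.0871) or control_iron replicate 3 (0.0945). Itgb2, the shared beta subunit of LFA-1 and Mac-1, averaged 7.18 ± 2.14 CPM in high_iron and 2.06 ± 1.30 CPM in control_iron and did not pass by limma (adjusted p = 0.110) or edgeR (0.207), but did by DESeq2 (0.0198). The other gene called by DESeq2 alone, named after its values were seen, was Selplg, the P-selectin ligand gene (adjusted p = 0.0378). Selplg and Itga4 reached the CPM of 1 that the filter asks for only in high_iron libraries. They entered the test through that group, so the Selplg call is not independent of the filter. Itgal and Itgb2 are leukocyte genes, and the leukocyte and lymphocyte markers summed to 40.2 to 74.4 CPM in high_iron and 16.3 to 22.6 CPM in control_iron. Of the 8 markers tested there, 1 rose by limma, against 0.832% of all genes called higher. It was Ighm, the immunoglobulin M heavy chain gene, whose call was lost without any 1 library (limma adjusted p from 0.0534 to 0.239). By edgeR 0 of the 8 were called, against 0.924% of all genes, and by DESeq2 4, against 3.27%. All 8 had an unadjusted p under 0.05, against 12.1% of all genes tested, and none was at 0 throughout. Ms4a1, 1 of the 8, reached the CPM of 1 that the filter asks for only in high_iron libraries, so the filter itself favours a rise there. Their part in the Itgal result was not tested. Itgb1 and Itga9, subunits that endothelial cells also carry, averaged 754 and 697 CPM in high_iron and 633 and 639 CPM in control_iron without passing.

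In the colony stimulating factor list, 6 of 9 genes were tested and 1 rose by limma, against 0.832% of all genes called higher. It was Csf1r, the receptor of the Csf1 product on macrophages. Csf1r was at 32.7, 20.2 and 20.2 CPM in high_iron replicates 1 to 3, against 2.34, 5.90 and 4.73 CPM in control_iron replicates 1 to 3. Its log2 fold change was 2.28 ± 0.30 (SE) with a limma adjusted p of 0.0097, and the groups did not overlap. The call was kept in 5 of 6 fits that left out 1 library and lost without high_iron replicate 3 (adjusted p = 0.0514). Csf1r is also 1 of the 15 macrophage markers whose sums are given above, beside Clec4f, a Kupffer cell lectin gene with 94.7 ± 22.0 CPM in high_iron and 21.6 ± 15.9 CPM in control_iron (SD, n = 3 each, limma adjusted p = 0.0347). Marco, a macrophage scavenger receptor gene, averaged 11.7 ± 2.15 CPM in high_iron and 2.40 ± 1.44 CPM in control_iron (adjusted p = 0.0238), and the complement gene C1qb averaged 48.2 ± 21.1 CPM in high_iron and 27.8 ± 6.23 CPM in control_iron (adjusted p = 0.384). The calls for Clec4f and Marco were each kept in 2 of the 6 fits, without control_iron replicate 1 or control_iron replicate 2, and lost in the other 4 with adjusted p from 0.0851 to 0.181 for Clec4f and from 0.0737 to 0.136 for Marco. Left out 1 at a time, libraries moved the count of macrophage markers between 0 without high_iron replicate 3 and 6 without control_iron replicate 2, with 1 without high_iron replicate 1, high_iron replicate 2 or control_iron replicate 3. Kitl, the stem cell factor gene, averaged 145.7 ± 17.7 CPM in high_iron and 114 ± 2.87 CPM in control_iron, and Flt3l, the gene of the FLT3 ligand, 22.3 ± 2.95 CPM in high_iron and 28.6 ± 3.51 CPM in control_iron, neither passing. Without strand, reads of overlapping genes cannot be told apart over 15.1% of the exonic bases of Csf1r and all of those of Flt3l. Csf3, the granulocyte factor gene, was at 0 in every library.

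Of the interleukin 6 list, 13 of 19 genes were tested and 1 rose by limma, against 0.832% of all genes called higher. By edgeR 1 was called, against 0.924%, and by DESeq2 2, against 3.27%. The limma call was Socs3, a feedback inhibitor induced by STAT3 that is also in the list of STAT3-responsive genes. Socs3 was at 67.8, 73.8 and 74.6 CPM in high_iron replicates 1 to 3, against 42.3, 38.9 and 29.2 CPM in control_iron replicates 1 to 3. The groups did not overlap, and the log2 fold change was 0.97 ± 0.16 (SE) with a limma adjusted p of 0.0313. The call was kept without control_iron replicate 1 (adjusted p = 0.0158) and lost without any of the other 5 libraries (0.0507 to 0.183), namely high_iron replicate 1, high_iron replicate 2, high_iron replicate 3, control_iron replicate 2 and control_iron replicate 3. Lifr, a receptor of leukemia inhibitory factor, averaged 1886 ± 141 CPM in high_iron and 1164 ± 119 CPM in control_iron and did not pass by limma (adjusted p = 0.0710) or edgeR (0.0620), but did by DESeq2 (1.4e-04). Jak1, the kinase below these receptors, averaged 1633 ± 204 CPM in high_iron and 1758 ± 54.1 CPM in control_iron. In the STAT3-responsive list 11 of 12 genes were tested, and Socs3 was the sole call, against 0.832% of all genes called higher. Socs1 averaged 65.4 ± 6.68 CPM in high_iron and 39.3 ± 22.2 CPM in control_iron, Cebpb, a transcription factor gene, 50.1 ± 4.36 CPM in high_iron and 30.7 ± 8.46 CPM in control_iron, and Mcl1, a survival gene, 238.5 ± 18.2 CPM in high_iron and 239.6 ± 5.47 CPM in control_iron (SD, n = 3 each), none passing. Other genes overlap 20.7% of the exonic bases of Cebpb.

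The NF-kB lists made no calls by limma or edgeR. All 13 core genes of the pathway were tested, with 0 calls by limma, edgeR or DESeq2, 0 unadjusted p under 0.05 and a median log2 fold change of 0.03. Nfkbia, the inhibitor that NF-kB itself induces, averaged 354 ± 5.45 CPM in high_iron and 380.4 ± 49.9 CPM in control_iron, and Rela, the p65 subunit gene, averaged 189 ± 3.93 CPM in high_iron and 210.4 ± 26.8 CPM in control_iron (SD, n = 3 each). The inhibitor-like gene Nfkbiz averaged 6.50 ± 2.17 CPM in high_iron and 9.86 ± 2.66 CPM in control_iron, and the kinase gene Chuk 71.2 ± 0.403 CPM in high_iron and 62.9 ± 3.07 CPM in control_iron. Of 16 other NF-kB targets 13 were tested, with 0 calls by limma or edgeR, 1 by DESeq2 and 2 unadjusted p under 0.05. Over all genes tested, DESeq2 called 3.27%, and 12.1% had an unadjusted p under 0.05. Tnfaip2 averaged 19.0 ± 3.89 CPM in high_iron and 8.32 ± 1.91 CPM in control_iron (limma adjusted p = 0.0599, DESeq2 9.4e-04). Traf1, an adaptor of TNF receptors, averaged 4.17 ± 0.311 CPM in high_iron and 6.90 ± 2.12 CPM in control_iron, and Irf1, an interferon regulatory factor gene, 188 ± 5.95 CPM in high_iron and 181 ± 11.3 CPM in control_iron.

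The list of upstream inflammatory signals held receptors, adaptors and the cytokine genes Tnf, Il1a and Il1b. It gave 0 calls by limma, edgeR or DESeq2 among 18 tested of 19, Tnf being the gene not tested. An unadjusted p under 0.05 was found for 1, against 12.1% of all genes tested. Tnfrsf1a, the main TNF receptor gene, averaged 697 ± 48.4 CPM in high_iron and 665 ± 31.2 CPM in control_iron, and Ltbr, the lymphotoxin receptor gene, 255 ± 15.0 CPM in high_iron and 249.6 ± 16.3 CPM in control_iron. Tnfrsf1b averaged 3.54 ± 0.516 CPM in high_iron and 1.79 ± 1.07 CPM in control_iron, and the adaptor kinase gene Ripk1 54.3 ± 8.36 CPM in high_iron and 38.7 ± 15.3 CPM in control_iron. For the docking structures that gather ICAM1 and VCAM1 at the cell surface, 13 genes gave 0 calls by limma or edgeR. By DESeq2 1 was called, against 3.27% of all genes, and 1 had an unadjusted p under 0.05, against 12.1%. Cav1, the caveolin gene, averaged 34.3 ± 2.68 CPM in high_iron and 63.3 ± 13.3 CPM in control_iron (limma adjusted p = 0.0550, DESeq2 6.7e-04). The ezrin and moesin genes Ezr and Msn, which tether ICAM1 to actin, averaged 53.3 ± 6.96 and 1028 ± 27.1 CPM in high_iron and 43.9 ± 5.74 and 855 ± 180 CPM in control_iron. Rac1, a small GTPase gene with 51.4% of its exonic bases under other genes, averaged 883 ± 31.9 CPM in high_iron and 789 ± 36.0 CPM in control_iron. The 14 genes of Weibel-Palade bodies, where P-selectin is stored, gave 0 calls by limma, edgeR or DESeq2 and 4 unadjusted p under 0.05, against 12.1% of all genes tested. Rab3d, a GTPase gene of the granules, averaged 90.9 ± 11.7 CPM in high_iron and 63.4 ± 5.66 CPM in control_iron, S100a10 138.5 ± 15.2 CPM in high_iron and 210.4 ± 58.4 CPM in control_iron, and Anxa2, its binding partner, 482 ± 27.7 CPM in high_iron and 491 ± 86.8 CPM in control_iron.

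**Figure D5:**
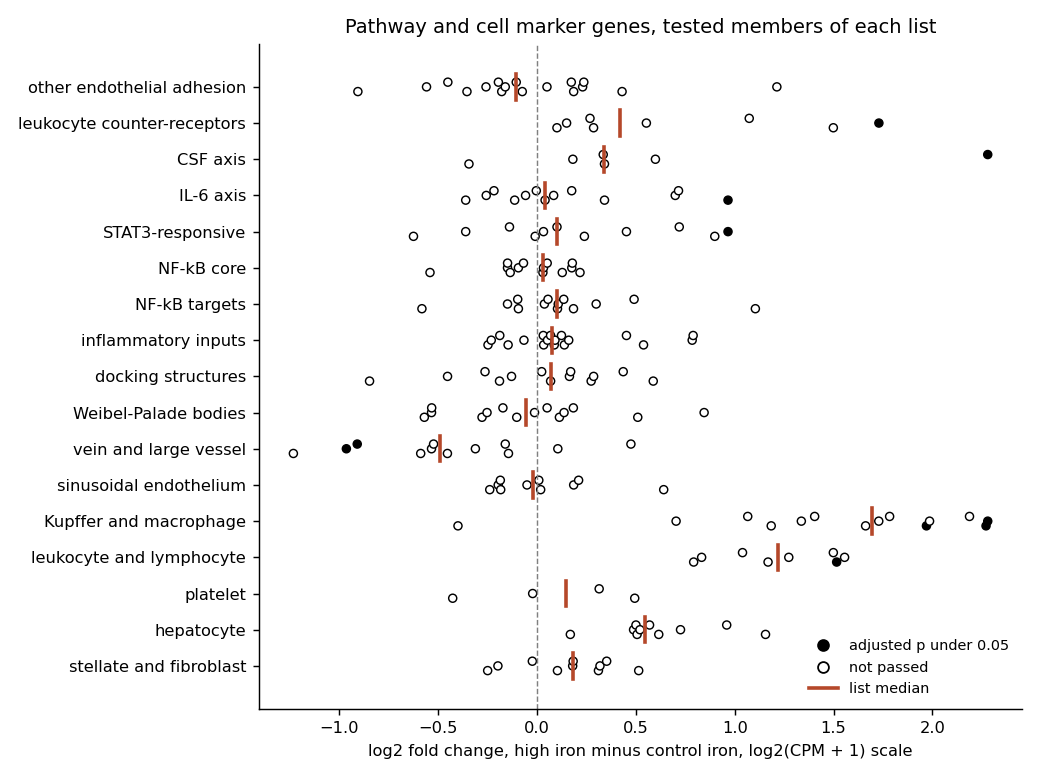
Log2 fold change, high_iron minus control_iron on the log2(CPM + 1) scale (horizontal axis), of each tested gene in the 10 pathway lists and 7 of the 10 cell marker lists, with filled points for a limma adjusted p under 0.05, open points otherwise and a red line at the list median. Macrophage markers have a median of 1.70 and leukocyte markers of 1.22. The medians are -0.11 for the endothelial adhesion list, 0.03 for the NF-kB core and 0.10 for the NF-kB targets.

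Endothelial subtype markers were set beside the adhesion genes, because P-selectin, E-selectin and VCAM1 are known more from veins and larger vessels than from sinusoids. Of 12 vein and large vessel markers 2 fell, against 0.193% of all genes tested that were called lower. The summed level of the list was 2568 to 2624 CPM in high_iron and 3108 to 4259 CPM in control_iron, and most of that difference lay in Plvap. Log2 fold changes were above 0 for 2 of the 12, Ly6a and Wnt2, and the list median was -0.489. Plvap, a diaphragm protein gene, averaged 907 ± 62.1 CPM in high_iron and 1798 ± 383 CPM in control_iron (limma adjusted p = 0.0449). Fabp4, a fatty acid binding protein gene, averaged 183 ± 26.6 CPM in high_iron and 344 ± 52.2 CPM in control_iron (limma adjusted p = 0.0344). In fits without 1 library the Plvap call was kept without control_iron replicate 3 (adjusted p = 0.0152), and the Fabp4 call without control_iron replicate 1 (0.0409) and control_iron replicate 2 (0.0481). The other fits lost it, with adjusted p from 0.0571 to 0.234 for Plvap and from 0.0509 to 0.193 for Fabp4, so the count was 0 without any 1 high_iron library and 1 without any 1 control_iron library. Wnt2, a central vein signal gene, averaged 509.6 ± 107 CPM in high_iron and 481 ± 146 CPM in control_iron. The 10 sinusoidal markers gave 0 calls by limma or edgeR, with sums of 21450 to 22540 CPM in high_iron and 22110 to 23400 CPM in control_iron. By DESeq2 1 was called, against 3.27% of all genes, and 1 had an unadjusted p under 0.05, against 12.1%. Lyve1, a hyaluronan receptor gene, averaged 339 ± 21.1 CPM in high_iron and 220.0 ± 43.5 CPM in control_iron, and Flt4, a VEGF receptor gene, 1518 ± 233 CPM in high_iron and 1307 ± 134 CPM in control_iron. The 8 general endothelial markers gave 0 calls by limma, edgeR or DESeq2 and 1 unadjusted p under 0.05, against 12.1% of all genes tested. Their sums were 8500 to 9230 CPM in high_iron and 9385 to 10680 CPM in control_iron. Among them Kdr averaged 2926 ± 98.4 CPM in high_iron and 3644 ± 193 CPM in control_iron, Eng 3068 ± 245 CPM in high_iron and 3185 ± 80.2 CPM in control_iron, and Mcam, the gene of the sorted protein CD146, 8.85 ± 2.26 CPM in high_iron and 18.4 ± 8.46 CPM in control_iron. The part of endothelial subtypes in the selectin and Vcam1 levels was not tested.

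Markers of other liver and blood cells were present at varied levels, and no list had a marker at 0 in every library. Laptm5 and Coro1a, leukocyte genes, averaged 16.6 ± 6.96 and 10.95 ± 2.69 CPM in high_iron and 4.87 ± 1.79 and 5.73 ± 1.77 CPM in control_iron. Of 10 neutrophil and monocyte markers 2 passed the filter, S100a9 with 1.95 ± 1.75 CPM in high_iron and 1.15 ± 0.813 CPM in control_iron, and Ccr2 with 2.96 ± 2.65 CPM in high_iron and 0.953 ± 0.454 CPM in control_iron. Platelet markers summed to 498 to 646 CPM in high_iron and 305 to 452 CPM in control_iron, most of it Clec1b, a gene that sinusoidal endothelium also expresses, with 529 ± 87.2 CPM in high_iron and 378 ± 77.1 CPM in control_iron. Pf4, the platelet factor 4 gene, averaged 7.02 ± 2.47 CPM in high_iron and 10.04 ± 4.45 CPM in control_iron. Hepatocyte markers summed to 528, 971 and 740 CPM in high_iron replicates 1 to 3, against 224, 906 and 524.5 CPM in control_iron. The log2 fold changes of all 10 were above 0, their median being 0.55. Among them Alb, the albumin gene, averaged 227 ± 38.0 CPM in high_iron and 175 ± 104 CPM in control_iron, Apoa1 89.8 ± 43.0 CPM in high_iron and 65.6 ± 38.0 CPM in control_iron, Fgb 54.7 ± 13.3 CPM in high_iron and 24.9 ± 10.5 CPM in control_iron, and Hp 21.1 ± 2.28 CPM in high_iron and 13.2 ± 6.20 CPM in control_iron. Stellate and fibroblast markers summed to 223, 976 and 594 CPM in high_iron replicates 1 to 3, against 139, 1051 and 540 CPM in control_iron. Their pericyte gene Rgs5 averaged 404 ± 257 CPM in high_iron and 367 ± 283 CPM in control_iron, Dcn 116 ± 65.2 CPM in high_iron and 136 ± 122 CPM in control_iron, Pdgfrb 5.86 ± 4.51 CPM in high_iron and 3.55 ± 2.49 CPM in control_iron, and Ngfr 1.09 ± 0.524 CPM in high_iron and 0.638 ± 0.409 CPM in control_iron. The mesothelial gene Gpm6a, the sole tested of 6, averaged 5.87 ± 3.60 CPM in high_iron and 11.4 ± 15.4 CPM in control_iron, where its level was 29.1 CPM in replicate 1 and 3.11 and 1.88 CPM in replicates 2 and 3. The neutrophil, platelet, hepatocyte, stellate and mesothelial lists gave 0 calls by limma or edgeR, 1 by DESeq2 and 3 unadjusted p under 0.05 in all. Over all genes tested, DESeq2 called 3.27%, and 12.1% had an unadjusted p under 0.05. Their part in the levels of the 7 genes was not tested.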

How the data were processed

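RNA was measured in 3 high_iron and 3 control_iron samples of sorted liver endothelial cells. Per the labels, a cDNA kit for low RNA input was used. Tools in the submitters' processing notes are edgeR, HTSeq and STAR, with the build mm10, all without versions. The authors deposited 39179 genes as a signal named CPM, reads over a scaled library size, and as RPKM, which equals 1000 × CPM over the deposited Length. Column totals of the deposited signal ran from 964515 to 1025619, since the library sizes are scaled. All 114253 values above 0 were whole reads (100%) within 0.001 read. A floor of 3 reads was 0.139 to 0.231 CPM, for counting error only. Differences within a group exceeded sampling noise for every library, and no duplicates were merged. Replicates are called biological in the labels, and no batch or date is given.

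The main test was limma 3.58.1 (R 4.3.3) on log2(CPM + 1), two-sided, with group as the sole term, a variance trend and Benjamini-Hochberg adjustment over the 12980 genes that reached a CPM of 1 in 3 or more libraries. The threshold was 0.05. The design had assumed plain CPM, and the same test was kept. Fold changes on this scale understate the change of low genes. It called 133 genes, 108 higher and 25 lower, against 120 by edgeR 4.0.16 (0.924%) and 424 by DESeq2 1.42.0 (3.27%) on the recovered reads. Tested on simulated reads of 12767 genes, the procedure found 49.5% of the 95 made to differ 2-fold and 89.8% of the 98 made to differ 4-fold, with 7 false among 142 calls. Ratios were compared by exact permutation tests. Near copies were searched with BLAST 2.17.0 at 95% identity over 50% of a transcript.

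The members and the 20 lists were chosen with earlier results of these data known. All 236 listed genes were found, and 191 were tested. All members were named, and for each list the 2 tested genes with the smallest p, with the called genes and the 2 of highest mean RPKM for pathway lists and the 2 of highest mean CPM for marker lists. Alternatives were pseudocounts of 0.1 and 0.5, no filter, a CPM minimum of 5, unscaled CPM, edgeR, DESeq2, a replicate term and leaving out each library. Protein sequences were not used here.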

Additional observations from a re-analysis of the deposited data

How the results depend on the processing

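The count of 133 genes moved to 34 with no filter, to 424 by DESeq2 and to 402 with a replicate block, and to between 27 and 183 without 1 library (55, 43 and 27 without high_iron replicates 1, 2 and 3, and 183, 88 and 53 without control_iron replicates 1, 2 and 3). Csf1 kept its size with no filter (log2 fold change 1.01), but its limma adjusted p was 0.0924. Under the replicate block Icam1 passed at the same log2 fold change of 0.78 (limma adjusted p = 0.0420), and the block changed no other member's call. Of the listed pathway genes 9 passed with the block, against 3 without it, and 11 macrophage markers against 3, 5 leukocyte markers against 1, 3 STAT3-responsive genes against 1, 2 counter-receptors against 1, 2 hepatocyte markers against 0, and 1 each against 0 in the endothelial adhesion, NF-kB target and docking lists. Without control_iron replicate 2, 1 hepatocyte marker passed. Samples with the same number deviated from their group means with r of 0.128, 0.32 and 0.063. Not every library correlated best with its own number. The stellate and hepatocyte marker sums, however, ran in the same order by number in both groups, lowest in replicate 1 and highest in replicate 2. The labels do not pair equal numbers, so the main test did not pair the samples.

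Without 1 library, log2 fold changes ran from 0.89 to 1.18 for Csf1, 0.51 to 1.15 for Icam1, -0.41 to -0.16 for Icam2, -0.061 to 0.60 for Vcam1, -0.44 to 0.095 for Selp and -0.32 to 0.29 for Sele. The listed pathway genes called ran from 0 to 3. The difference in the log2 ratio of Selp to Sele was 0.043 and ran from -0.742 to 0.608, with -0.742 without high_iron replicate 2 and -0.482 without control_iron replicate 1. That of Vcam1 to Icam1 ran from -0.706 to -0.41, and that of Icam1 to Icam2 from 0.764 to 1.51. With GENCODE M21 lengths, Icam1 stood at 20.3 CPM per 1000 bases in high_iron and Vcam1 at 7.67 in high_iron and 6.97 in control_iron, and the mean Icam1 share of the 5 adhesion genes was 8.24% in high_iron, against 12.7% with deposited lengths. Sele was not in the fit with a CPM minimum of 5. Other pseudocounts, unscaled CPM, a CPM minimum of 5, edgeR and DESeq2 changed no member's call or direction. Where a value moved, the cause was not tested. Depth limits Sele and Il6, which had 6 to 55 and 0 to 5 reads per library.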
